A study of Mus musculus with 18 samples.

Results

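In PBS-treated allergic mice, B cells from Peyer's patches (lymphoid follicles that lie in the small intestinal wall) were compared with B cells from the spleen. The comparison holds 6 of the 18 bulk RNA-Seq libraries of the series, 3 from Peyer's patch and 3 from spleen, and they were chosen by the tissue and treatment in their labels. The mice were female BALB/cJ, aged 10 to 12 weeks, with no genetic modification in the labels. All were sensitized at 4 to 6 weeks of age with 20 μg OVA (ovalbumin) and 1 mg alum i.p. on days 0 and 14, then given 100 μL PBS i.v. on days 28 and 42, and their organs were taken on day 44. The spleen B cells are thus those of a mouse with alum-adjuvanted sensitization, and no unsensitized group is part of these samples. In both tissues the B cells were enriched with a pan B cell kit by negative selection, in which other cells are labeled and held back on a magnet. The remaining 12 libraries are from the same tissues after soluble OVA or OVA NPs (nanoparticles that carry OVA) in place of PBS, and they enter only the last comparisons.

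The organs were not dissociated in the same way. Peyer's patches were minced and digested with 2 mg/mL collagenase IV and DNase I at 37 °C for 30 minutes. They were then passed through a needle and a 70 μm filter. Spleens were also pushed through a 70 μm filter, but with no digestion step given, and red cells were lysed with ACK for 2 to 5 minutes. Tissue and dissociation therefore cannot be told apart in any result. The labels do not say whether a spleen library and a Peyer's patch library with the same number came from 1 mouse, and the p-values measure the spread between these libraries.

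As background, Peyer's patches sample antigen from the gut lumen through specialized epithelium and hold germinal centers throughout life, driven by food and microbes. In germinal centers B cells divide, mutate their antibody genes, and are selected by follicular helper T cells. TGF-beta and retinoic acid made in the gut direct class switching to IgA and imprint homing to the intestine. The spleen filters blood and holds follicular B cells, which recirculate, and marginal zone B cells, which stay at the blood interface and answer blood-borne antigen quickly.

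The Peyer's patch libraries held 14177253 to 24385914 expected counts and the spleen libraries 21504233 to 23969127, with Peyer's patch replicate 2 the shallowest. Mitochondrially encoded transcripts took 5.41% to 7.67% of the counts in Peyer's patch and 2.82% to 3.19% in spleen. Libraries of the same group differed by more than counting error (chi-square per gene of 5.73 to 20.3), so none was a copy of another. In bulk samples, fewer cells of a type and less RNA per cell cannot be told apart.

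Levels are given as CPM, counts relative to library size after TMM scaling for composition. Differential expression over these 6 libraries was tested by the quasi-likelihood method of edgeR. A gene was called at a Benjamini-Hochberg adjusted p under 0.05 with an absolute log2 fold change above 0.25, and a positive value means higher in Peyer's patch. Of 15463 genes tested, 7050 (45.6%) were called, 3939 (25.5%) higher and 3111 (20.1%) lower in Peyer's patch. The 3 Peyer's patch and 3 spleen values did not overlap for 9360 genes (60.5%). Large differences were mostly in 1 direction. An absolute log2 fold change above 1 was called for 3286 genes (21.3%). A log2 fold change above 2 was called for 1745 genes (11.3%) and one below -2 for 207 (1.34%). The median over all genes was 0.009. When libraries were instead scaled so that the B cell identity list was equal, the median moved to 0.31 and 8191 genes were called, 6979 higher and 1212 lower. Lists whose balance depends on this choice are given with both counts. Because 45.6% of all genes were called, a gene list with about that share called does not stand out from the rest. Leaving out 1 library at a time gave 6375 to 7829 calls, with 7829 without Peyer's patch replicate 2 and 6745 without spleen replicate 3.

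The B cell label held in both tissues. The 12 genes of a B cell identity list summed to 9532 to 10130.3 CPM in Peyer's patch and 12070.4 to 12470.1 CPM in spleen. Of these, 7 were lower in Peyer's patch and none higher (2 lower and 2 higher when libraries were scaled to this list), with a median log2 fold change of -0.29 over the list. That scaling makes the list equal on average, so the balance of its members under it is set in advance. *Cd79b*, a signaling chain of the B cell receptor, read 903, 757, and 869 CPM in Peyer's patch and 1389, 1412, and 1374 CPM in spleen (log2 fold change -0.72, SE 0.07, adjusted p = 2.85e-05). Its groups did not overlap, and it was still lower when libraries were scaled to this list (-0.42).

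**Figure D1:**
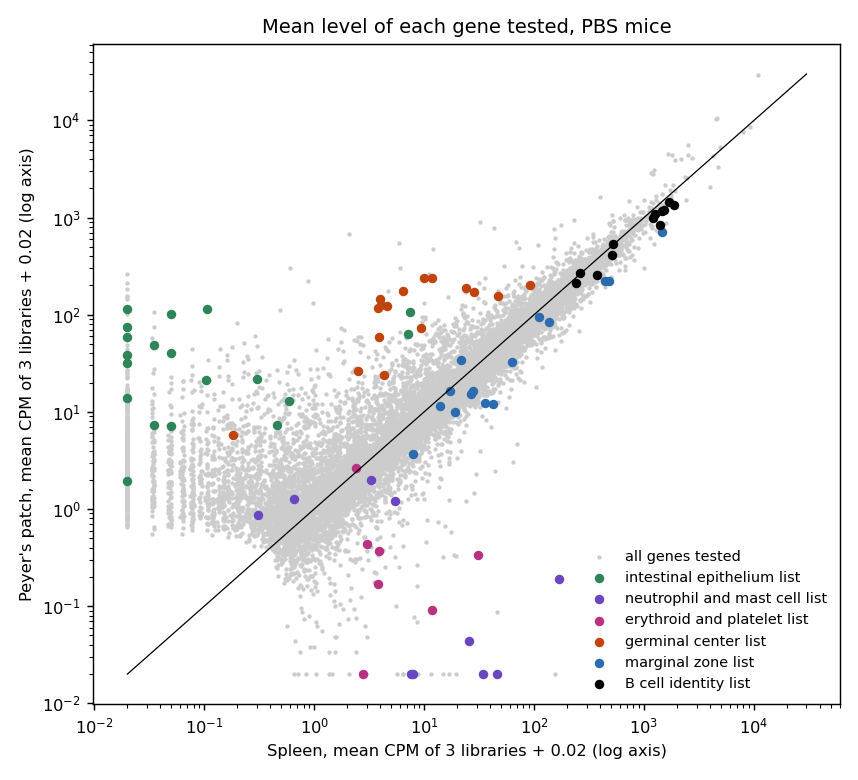
Mean level of each of the 15463 genes tested, spleen on the horizontal and Peyer's patch on the vertical axis, in CPM + 0.02 on log axes (3 libraries each), with members of 6 gene lists in color and a line of equal levels. Intestinal epithelium markers lie far above the line, neutrophil and erythroid markers far below it, germinal center genes above it, and the B cell identity list close to it.

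The genes with the largest differences were those of other cells. The 12 genes with the largest increase in Peyer's patch all had 0 counts in each spleen library and are known from the intestinal epithelium. They include *Apoa4*, an apolipoprotein of enterocytes, at 229, 119.7, and 438 CPM in Peyer's patch, and *Sis*, the brush border enzyme sucrase-isomaltase, at 206, 93.6, and 337 CPM. Against the level that 3 counts over the spleen group would give (0.0431 CPM), *Apoa4* was at least 6081-fold higher and *Sis* at least 4927-fold higher. Others were *Apoa1*, *Fabp1*, *Rbp2*, *Fabp2*, *Adh1*, *Alpi*, *Ckmt1*, *Lypd8*, and *Ces2e*, at least 1261-fold to 4295-fold higher. All 12 were lowest in Peyer's patch replicate 2 and highest in replicate 3. Without Peyer's patch replicate 1 none of the 12 was called (adjusted p from 0.0575 for *Alpi* to 0.136 for *Rbp2*), and 6 were not without replicate 2, likewise 6 without replicate 3.

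A list of 20 epithelial markers, of which 19 were tested, was higher for all 19 tested members. It summed to 408 to 1364 CPM in Peyer's patch and 15.5 to 17.5 CPM in spleen, and 7 members were at 0 in all spleen libraries. *Muc2*, the goblet cell mucin, read 11.1, 2.47, and 8.33 CPM in Peyer's patch and 0, 0, and 0.0453 CPM in spleen. *Lyz1*, the lysozyme of Paneth cells, read 32.9, 26.5, and 60.8 CPM and 0.0435, 0, and 0.0453 CPM. *Epcam*, an adhesion molecule of epithelial cells, read 68.1, 30.8, and 90.5 CPM and 6.43, 6.65, and 8.43 CPM (log2 fold change 3.15, SE 0.47, adjusted p = 0.00421). Transcripts of absorptive, goblet, and Paneth cells were thus all present in the Peyer's patch libraries, and each of these genes was lowest in replicate 2.

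Markers of stroma and follicular dendritic cells were also higher in Peyer's patch, at 12 of 15 tested members with 1 lower. *Cxcl13*, the chemokine that draws B cells into follicles, read 6.06, 8.94, and 9.02 CPM in Peyer's patch and 0.0869, 0.0408, and 0 CPM in spleen. *Ccl21a*, the chemokine of T cell zones, read 38.3, 8.21, and 12.8 CPM and 0, 0, and 0.0906 CPM, and *Madcam1*, the vascular ligand for gut-homing lymphocytes, read 3.09, 1.598, and 2.92 CPM and 0, 0.163, and 0 CPM. In each the groups did not overlap. T cell markers were higher for 11 of 12 tested members and none lower. *Cd3d*, *Cd4*, *Cd8b1*, and *Themis*, also on this list of 16, had too few counts for a test. All 16 markers together summed to 209.7 to 254 CPM against 82.4 to 92.8 CPM. The defining receptor chain of T cells, *Cd3e*, was low in both tissues, at 3.22, 1.89, and 3.56 CPM in Peyer's patch and 1.22, 0.652, and 0.952 CPM in spleen. Natural killer markers were higher for 4 of 7, dendritic cell markers for 6 of 11 with 1 lower, and monocyte and macrophage markers for 6 of 14 with 4 lower (7 higher and 2 lower when scaled to the B cell identity list). Without spleen replicate 3 the monocyte and macrophage markers called lower numbered 2, and the dendritic cell marker was not called without Peyer's patch replicate 2 or 3 or spleen replicate 3. *C1qa*, a complement subunit made by tissue macrophages, had 0 counts in all spleen libraries and 12.5, 11.5, and 16.99 CPM in Peyer's patch, at least 317-fold higher. *Cd300e*, a receptor of blood monocytes, went the other way, at 0.0424, 0, and 0 CPM in Peyer's patch and 2.43, 1.96, and 2.81 CPM in spleen.

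The genes furthest apart in the other direction were those of myeloid and red cell precursors, which the mouse spleen houses. *Car1*, carbonic anhydrase 1 of red cells, read 174, 166, and 128 CPM in spleen with 0 counts in all Peyer's patch libraries, at least 2924-fold lower. *Elane*, the elastase of neutrophil precursors, read 28.5, 32.5, and 77.9 CPM in spleen with 0 counts in Peyer's patch, at least 867-fold lower. *Mpo*, myeloperoxidase of the same cells, read 0.0848, 0.218, and 0.212 CPM in Peyer's patch and 101, 115, and 288 CPM in spleen. Spleen replicate 3 was the highest for *Elane* and *Mpo* and the lowest for *Car1*. Neutrophil and mast cell markers were lower for 7 of 10 tested members with 1 higher, or 0 higher without Peyer's patch replicate 1 and 2 without Peyer's patch replicate 2 or spleen replicate 3 (3.92 to 7.38 CPM in Peyer's patch and 191 to 511 CPM in spleen), and erythroid and platelet markers for 6 of 7 with none higher (3.69 to 4.62 and 44.9 to 71.8 CPM). Other genes with the largest decrease were *S100a9*, *Ctsg*, *Ngp*, and *Prtn3* of neutrophils and their precursors, *Epor* and *Klf1* of red cells, and *Add2* and *Slc38a5*. *S100a9* was not called without Peyer's patch replicate 2 (adjusted p = 0.0568) or spleen replicate 1 (0.0538), nor *Ngp* without Peyer's patch replicate 2 (0.0546). *Klf1*, a transcription factor of red cell precursors, read 0.212, 0.363, and 0.372 CPM in Peyer's patch and 35.9, 29.8, and 26.5 CPM in spleen (log2 fold change -6.63, SE 0.22, adjusted p = 2.27e-07).

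**Figure D2:**
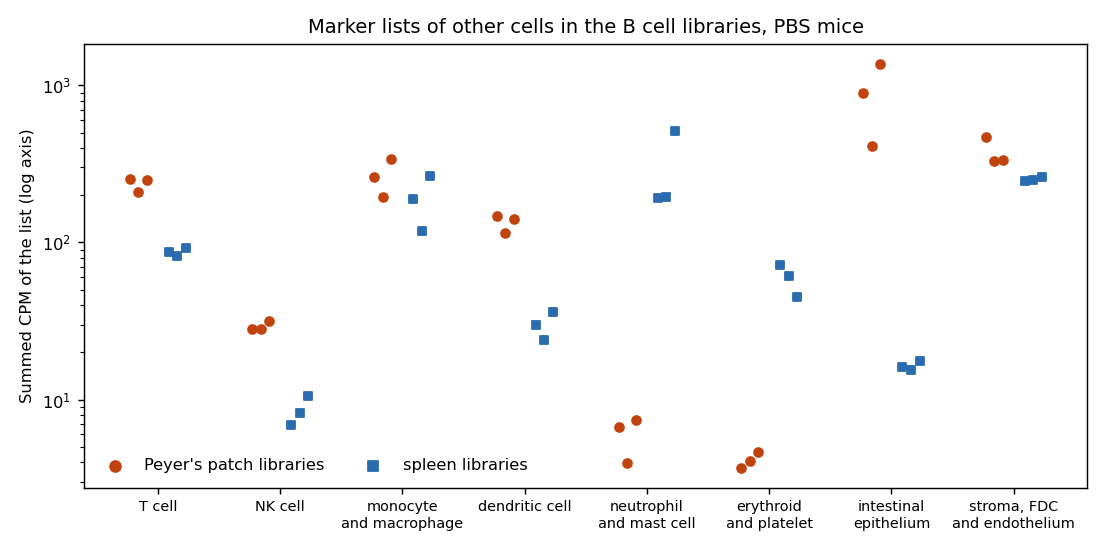
Summed CPM (log axis) of 8 marker lists of cells other than B cells, 1 point per library. Epithelial, T, natural killer, dendritic, and stromal markers were higher in the 3 Peyer's patch libraries than in any spleen library, neutrophil and erythroid markers were lower, and monocyte and macrophage markers overlapped.

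Germinal center transcripts were higher in Peyer's patch for all 16 genes of the list, all of which were tested, with a median log2 fold change of 4.15 and no overlap between groups for any. The list summed to 1945 to 2283 CPM in Peyer's patch and 210.2 to 316 CPM in spleen. *S1pr2* (ENSMUSG00000043895, GRCm38 chr9:20962361-20976781), the receptor that keeps germinal center B cells inside the follicle, read 189.7, 173, and 168 CPM in Peyer's patch and 3.87, 3.38, and 11.8 CPM in spleen (log2 fold change 4.82, SE 0.49, adjusted p = 0.00124). *Mybl1*, a transcription factor of germinal center B cells, read 256, 248, and 212 CPM and 8.61, 5.67, and 21.03 CPM (log2 fold change 4.35, SE 0.51, adjusted p = 0.00202). For both genes spleen replicate 3 stood at more than the other spleen libraries and far under the lowest Peyer's patch library. Without spleen replicate 3 the log2 fold change of *Mybl1* was 5.05.

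*Bcl6*, the repressor that germinal center B cells need, had the smallest difference of the list, with 217, 199, and 185 CPM in Peyer's patch and 96.2, 80.5, and 95.8 CPM in spleen (log2 fold change 1.14, SE 0.09, adjusted p = 5.42e-06). *Fas*, a death receptor carried by germinal center B cells, read 25.9, 20.5, and 24.6 CPM and 3.52, 3.75, and 5.66 CPM (log2 fold change 2.46, SE 0.19, adjusted p = 6.57e-06). *Nuggc*, a nuclear GTPase of germinal centers, had the largest, with 162, 133, and 143 CPM and 2.52, 1.92, and 7.43 CPM (log2 fold change 5.23, SE 0.48, adjusted p = 7.88e-04). All 16 germinal center genes were called in each fit that left out 1 library and when libraries were scaled to the B cell identity list. *Lipc* and *Rgs13*, also on this list, are among the genes that the study uses as B10 regulatory markers.

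**Figure D3:**
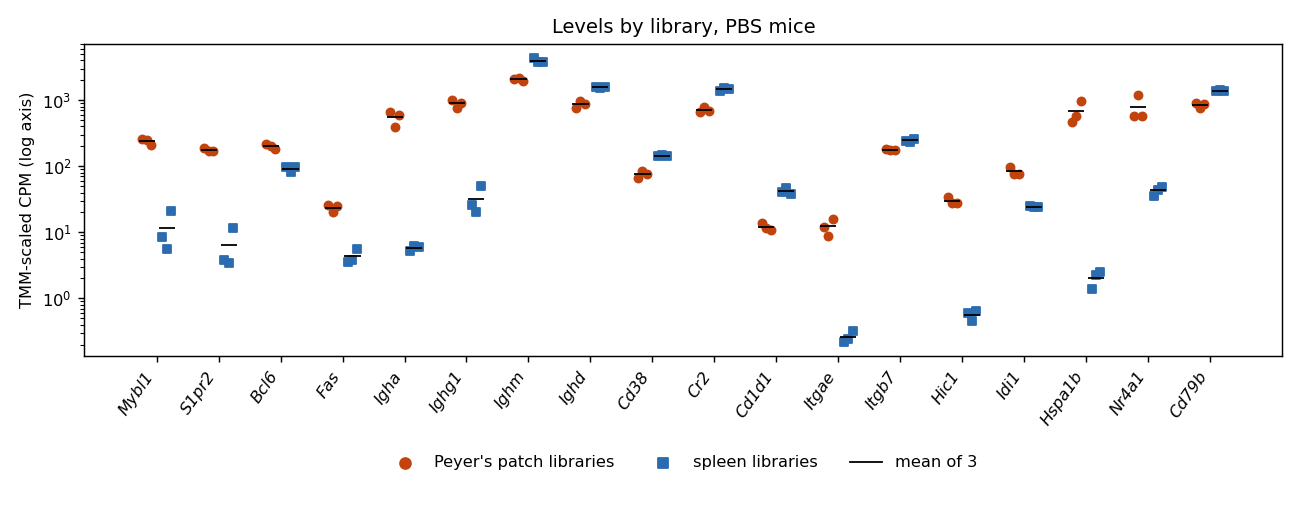
Level of 18 genes in each library (log axis, TMM-scaled CPM), Peyer's patch as circles and spleen as squares, with a bar at the mean of 3. *Hspa1b*, *Igha*, *Hic1*, and *Itgae* lie furthest apart, germinal center genes are higher in Peyer's patch, *Ighm*, *Ighd*, *Cd38*, *Cr2*, and *Cd1d1* are lower, and *Itgb7* differs least.

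Antibody constant regions differed by isotype, with 4 of 8 genes higher and 3 lower in Peyer's patch. *Igha* (ENSMUSG00000095079, GRCm38 chr12:113254830-113260236), the constant region of IgA, read 659.7, 391, and 597 CPM in Peyer's patch and 5.22, 6.197, and 6.07 CPM in spleen (log2 fold change 6.56, SE 0.27, adjusted p = 1.40e-05). *Ighg1*, the constant region of IgG1, read 1008, 773, and 911 CPM and 25.9, 20.5, and 50.3 CPM (log2 fold change 4.80, SE 0.41, adjusted p = 6.69e-04). *Ighg2b*, of IgG2b, read 84.4, 153, and 157 CPM and 10.8, 6.69, and 12.6 CPM (log2 fold change 3.71, SE 0.38, adjusted p = 9.98e-04), and *Ighg3*, of IgG3, read 106, 113, and 68.1 CPM and 38.3, 34.4, and 49.9 CPM (log2 fold change 1.23, SE 0.24, adjusted p = 0.00809). These 4 switched isotypes were each higher in every Peyer's patch library than in any spleen library. *Ighe*, of the switched isotype IgE, was low in both tissues and lower in Peyer's patch, with 17, 16, and 18 counts in Peyer's patch and 48, 55, and 71 in spleen (log2 fold change -1.43, SE 0.35, adjusted p = 0.00704), a call that was lost with all 18 libraries in 1 fit.

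The unswitched isotypes IgM and IgD were lower. *Ighm* read 2081, 2185, and 1955 CPM in Peyer's patch and 4330.3, 3845, and 3729 CPM in spleen (log2 fold change -0.94, SE 0.07, adjusted p = 7.26e-06), and *Ighd* read 766, 961, and 883 CPM and 1563, 1532, and 1609.9 CPM (log2 fold change -0.85, SE 0.08, adjusted p = 2.29e-05). These genes are members of 1 family, so reads that fit several of them were divided by the counting program. BALB/c mice carry alleles that differ from the reference strain, and the IgG2a and IgG2c isotypes are not interpreted here.

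Of 17 enzymes of class switching and hypermutation, 8 were higher and 1 lower in Peyer's patch (12 higher and 0 lower when scaled to the B cell identity list). *Polh*, the error-prone polymerase that copies past DNA lesions, read 96.2, 82.7, and 72.7 CPM in Peyer's patch and 21.7, 24.5, and 27.96 CPM in spleen (log2 fold change 1.76, SE 0.12, adjusted p = 6.36e-06). *Ung*, which removes uracil from DNA, read 28.5, 23.03, and 21.02 CPM and 10.1, 11.9, and 11.6 CPM (log2 fold change 1.11, SE 0.13, adjusted p = 1.12e-04). The lower one, *Shld2* of the shieldin complex, had a log2 fold change of -0.47 (adjusted p = 0.00246) and lost its call under that scaling (-0.17). Without Peyer's patch replicate 2 a second gene was called lower.

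Of 13 tested plasma cell genes, 10 were higher and none lower (1 lower without Peyer's patch replicate 3). *Jchain*, which links IgA and IgM units for transport across epithelium, read 582, 493, and 496 CPM in Peyer's patch and 142, 85.7, and 98.8 CPM in spleen (log2 fold change 2.27, SE 0.20, adjusted p = 3.08e-04). *Prdm1*, the regulator that commits B cells to secretion, read 9.75, 13.9, and 9.02 CPM and 4.87, 3.34, and 4.53 CPM (log2 fold change 1.35, SE 0.22, adjusted p = 7.25e-04). *Xbp1*, which expands the secretory machinery, read 92.8, 79.5, and 86.8 CPM and 64.6, 56.5, and 64.7 CPM (log2 fold change 0.48, SE 0.08, adjusted p = 6.91e-04). The surface marker *Sdc1* (CD138) overlapped between tissues at 15.9, 11.3, and 18.2 CPM and 16.7, 13.9, and 11.6 CPM and was not called (adjusted p = 0.656). Genes of the unfolded protein response and secretion were higher for 8 of 17 and lower for 1 (15 higher and 1 lower when scaled to the B cell identity list), and the lower one, *Pdia4*, read 75.7, 73.2, and 74.4 CPM and 125, 128, and 135 CPM.

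Genes of the recirculating follicular B cell were lower for 9 of 14 tested members and higher for 3 (7 lower and 4 higher when scaled to the B cell identity list). *Fcer2a*, which encodes the low-affinity IgE receptor CD23, read 799, 874, and 909 CPM in Peyer's patch and 1127, 1086, and 1184 CPM in spleen (log2 fold change -0.40, SE 0.06, adjusted p = 6.96e-04), and was not called when scaled to the B cell identity list (-0.10, adjusted p = 0.26). *Cd38*, which mouse B cells lose on entry into the germinal center, read 66.9, 83.4, and 75.3 CPM and 144, 147, and 142 CPM (log2 fold change -0.94, SE 0.08, adjusted p = 1.01e-05). In both the groups did not overlap. The 3 higher members were *Ccr7*, *Gpr183*, and *Bach2*, the last at a log2 fold change of 0.29 that lost its call without Peyer's patch replicate 1 or 2 or spleen replicate 2 or 3 (adjusted p from 0.0359 to 0.101, with 0.21 without Peyer's patch replicate 2). *Ccr7*, the receptor for T zone chemokines, read 189, 326, and 221 CPM in Peyer's patch and 125, 129, and 116 CPM in spleen (log2 fold change 0.99, SE 0.21, adjusted p = 0.0107), a call that was lost with all 18 libraries in 1 fit.

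Marginal zone genes were lower for 11 of 15 and higher for 1 in Peyer's patch, with a median log2 fold change of -0.91. *Cd1d1*, the lipid-presenting molecule that marginal zone B cells carry in quantity, read 13.8, 11.6, and 10.8 CPM in Peyer's patch and 41.1, 46.6, and 37.9 CPM in spleen (log2 fold change -1.79, SE 0.12, adjusted p = 2.37e-06). *Cr2*, complement receptor CD21, read 667, 794, and 685 CPM and 1393, 1544, and 1461 CPM (log2 fold change -1.04, SE 0.08, adjusted p = 4.80e-06). *Notch2*, the receptor that marginal zone B cells depend on, read 208, 247, and 207 CPM and 492, 455, and 505 CPM (log2 fold change -1.13, SE 0.08, adjusted p = 3.08e-06), and its target *Dtx1* read 231, 218, and 224 CPM and 413, 441, and 472 CPM (log2 fold change -0.98, SE 0.06, adjusted p = 2.03e-06). For none of the 4 did the tissues overlap. *Asb2*, the 1 member that was higher, read 39.1, 26.4, and 36.05 CPM and 18.8, 22.99, and 23.02 CPM.

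The list of B-1 and memory-like genes was split, with 5 higher and 6 lower of 15 (7 higher and 4 lower when scaled to the B cell identity list). *Nt5e*, the ectoenzyme CD73 of memory and germinal center B cells, read 43.7, 41.3, and 41.5 CPM in Peyer's patch and 4.04, 4.403, and 5.44 CPM in spleen (log2 fold change 3.19, SE 0.12, adjusted p = 2.66e-07). *Spn* (CD43), which B-1 cells carry, was lower and read 28.8, 24.6, and 24.95 CPM and 72.2, 73.4, and 76.5 CPM (log2 fold change -1.50, SE 0.08, adjusted p = 7.79e-07). Of the transitional list, 2 were higher and 2 lower of 6 tested (3 higher and 2 lower under that scaling). *Sox4*, a factor of early B cells, read 7.93, 5.52, and 7.17 CPM and 17.3, 18.7, and 13.5 CPM (log2 fold change -1.25, SE 0.18, adjusted p = 2.69e-04).

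Genes of B cell receptor signaling were lower for 13 of 22 and higher for 4, a balance that turned to 7 higher and 3 lower when libraries were scaled to the B cell identity list. Both lists hold *Cd79b*, so the receptor list is not separate from that scaling. *Syk*, the kinase that binds the activated receptor, read 776, 838, and 735 CPM in Peyer's patch and 1178, 1188, and 1173 CPM in spleen (log2 fold change -0.59, SE 0.06, adjusted p = 4.03e-05). *Grb2*, an adaptor protein of the receptor, read 553, 565, and 547 CPM and 351, 354, and 376 CPM (log2 fold change 0.62, SE 0.05, adjusted p = 1.26e-05). Under either scaling *Syk* was lower and *Grb2* higher. Toll-like receptors and their partners were lower for 10 of 14 and higher for none (0 higher and 7 lower when scaled to the B cell identity list). *Tlr7*, the endosomal sensor of single-stranded RNA, read 14.3, 22.01, and 12.1 CPM in Peyer's patch and 45.2, 47.8, and 34.7 CPM in spleen (log2 fold change -1.42, SE 0.23, adjusted p = 0.00247). *Tlr9*, the sensor of unmethylated CpG DNA, read 77.3, 87.4, and 79.3 CPM and 129, 136, and 142 CPM (log2 fold change -0.74, SE 0.07, adjusted p = 1.90e-05), and *Tlr2*, the receptor for bacterial lipoproteins, read 5.51, 4.14, and 6.05 CPM and 15.6, 15.6, and 13.8 CPM (log2 fold change -1.51, SE 0.16, adjusted p = 5.52e-05).

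Of 19 chemoattractant receptors and their signaling partners, 8 were higher and 7 lower (9 higher and 3 lower when scaled to the B cell identity list). *Ccr9*, the receptor for the small intestinal chemokine CCL25, read 13.2, 13.5, and 13.1 CPM in Peyer's patch and 6.82, 4.12, and 5.89 CPM in spleen (log2 fold change 1.24, SE 0.19, adjusted p = 4.19e-04). *Ccr10*, a receptor of IgA-secreting cells, had 29, 8, and 20 counts in Peyer's patch and 2, 3, and 2 in spleen (log2 fold change 3.21, SE 0.56, adjusted p = 0.001). *Cxcr4*, which places dividing cells in the germinal center dark zone, read 410.2, 492, and 512 CPM and 129, 192, and 136 CPM (log2 fold change 1.63, SE 0.17, adjusted p = 4.30e-04). *Cxcr5*, the receptor for the follicle chemokine CXCL13, was lower at 391, 475, and 367 CPM and 535, 579.9, and 598 CPM (log2 fold change -0.48, SE 0.09, adjusted p = 0.00229), and was not called under that scaling (-0.18). Among the receptors for sphingosine-1-phosphate, *S1pr2* was higher, whereas *S1pr1*, *S1pr3*, and *S1pr4* were lower, though *S1pr1* was not called under that scaling (-0.20). *S1pr4* read 28.2, 23.8, and 35.8 CPM in Peyer's patch and 122, 120.1, and 108 CPM in spleen (log2 fold change -1.99, SE 0.13, adjusted p = 1.06e-05).

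Integrins and adhesion molecules were also split, 5 higher and 8 lower of 15 tested (5 higher and 3 lower when scaled to the B cell identity list). Without spleen replicate 1 the number higher was 3. *Itgae*, the αE chain (CD103) that binds E-cadherin on epithelium, read 12.1, 8.72, and 16.1 CPM in Peyer's patch and 0.217, 0.245, and 0.317 CPM in spleen (log2 fold change 5.54, SE 0.33, adjusted p = 1.33e-06). *Itgax* (CD11c) read 31.7, 27.8, and 40.2 CPM and 6.39, 6.16, and 8.79 CPM (log2 fold change 2.23, SE 0.18, adjusted p = 1.28e-05). Both genes are also carried by T cells or dendritic cells of the gut, whose lists were higher in the same libraries (dendritic cell markers summed to 114 to 147 CPM in Peyer's patch and 23.8 to 36.3 CPM in spleen). The dendritic cell list includes *Itgax* itself, so its sum is not separate from that gene. The part of those cells was not tested. The chains of the gut-homing integrin α4β7 were lower in Peyer's patch, though *Itgb7* was not called when scaled to the B cell identity list. *Itga4* read 326, 394, and 304 CPM and 555, 568, and 534 CPM (log2 fold change -0.70, SE 0.09, adjusted p = 1.87e-04), and *Itgb7* read 179.8, 179, and 179 CPM and 241, 236, and 259 CPM (log2 fold change -0.45, SE 0.06, adjusted p = 1.21e-04). Under that scaling *Itgb7* was at -0.16 and *Itga4* at -0.40.

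Of 15 tested targets and components of retinoic acid, TGF-beta, and aryl hydrocarbon receptor signaling, 8 were higher and 3 lower (9 higher and 0 lower when scaled to the B cell identity list). *Hic1* (chr11:75164565-75169519), a repressor gene induced by retinoic acid in gut immune cells, read 34.5, 27.6, and 27.7 CPM in Peyer's patch and 0.608, 0.448, and 0.634 CPM in spleen (log2 fold change 5.72, SE 0.18, adjusted p = 2.27e-07). *Ahr*, the aryl hydrocarbon receptor that binds diet-derived ligands, read 16.4, 23.4, and 13.1 CPM and 4.35, 5.42, and 6.44 CPM (log2 fold change 1.70, SE 0.23, adjusted p = 2.91e-04), and its target *Ahrr* had 43, 13, and 40 counts and 2, 9, and 6 counts (log2 fold change 2.73, SE 0.55, adjusted p = 0.0023). *Smad7*, a feedback inhibitor induced by TGF-beta, read 68.6, 101, and 69.6 CPM and 32.9, 31.1, and 34.9 CPM (log2 fold change 1.27, SE 0.15, adjusted p = 3.32e-04). The receptor gene *Tgfbr1* was higher (log2 fold change 0.71, SE 0.08, adjusted p = 6.36e-05) and *Tgfbr2* lower (log2 fold change -0.49, SE 0.07, adjusted p = 2.20e-04), the latter not called under that scaling (-0.19). *Cyp1a1*, *Cyp1b1*, and *Rarb*, also targets of these pathways, fell under the filter on low counts. *Cyp1b1* had 57, 22, and 8 counts in Peyer's patch and 0 in each spleen library. Epithelial and stromal markers were higher in the same libraries, and the part of other cells in these genes was not tested.

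**Figure D4:**
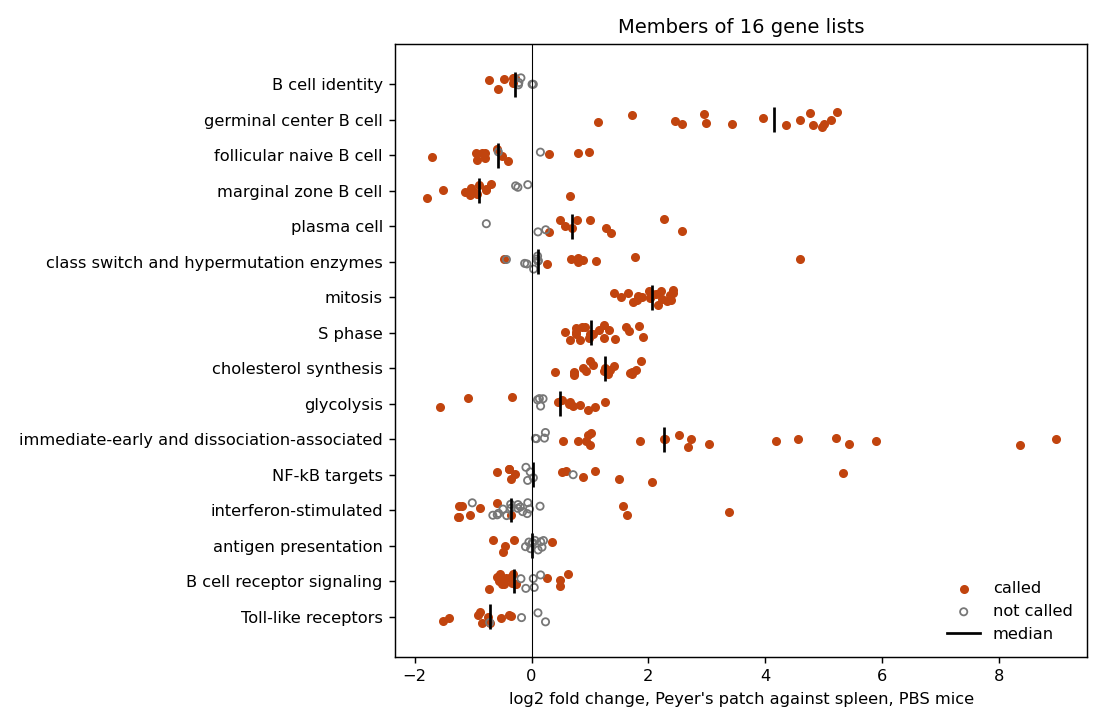
Log2 fold change of each tested member of 16 gene lists, Peyer's patch against spleen, filled where called and open where not, with a bar at the list median. All germinal center, mitosis, S phase, and cholesterol synthesis genes lie right of 0, and Toll-like receptor and marginal zone genes mostly left.

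All 20 S phase genes and all 20 mitosis genes were called higher in Peyer's patch, with median log2 fold changes of 1.03 and 2.05. *Mki67*, a marker of dividing cells, read 853, 732, and 695 CPM in Peyer's patch and 149, 131, and 176 CPM in spleen (log2 fold change 2.32, SE 0.12, adjusted p = 2.84e-06). *Top2a*, the topoisomerase of mitotic cells, read 363, 316, and 280.1 CPM and 77.3, 72.5, and 80.5 CPM (log2 fold change 2.06, SE 0.09, adjusted p = 6.21e-07), and *Pcna*, the sliding clamp of DNA replication, read 271, 262, and 230.0 CPM and 144, 133, and 140.5 CPM (log2 fold change 0.87, SE 0.07, adjusted p = 9.90e-06). Crypt epithelium also divides, and epithelial transcripts were higher in the same libraries. Peyer's patch replicates 1, 2, and 3 had mitosis sums of 2636, 2275, and 2170.3 CPM and epithelial sums of 890.0, 408, and 1364 CPM, and the part of epithelium in the cell cycle genes was not tested.

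Of 14 genes of D cyclins and G1 control, 9 were higher and 3 lower (9 higher and 1 lower when scaled to the B cell identity list). *Ccnd3*, the cyclin that germinal center B cells use, read 214, 178, and 190.3 CPM in Peyer's patch and 79.2, 88.1, and 95.5 CPM in spleen (log2 fold change 1.15, SE 0.09, adjusted p = 7.44e-06). *Cdkn1b*, the p27 inhibitor of resting lymphocytes, was lower at 117, 150.1, and 123 CPM and 208, 215, and 191 CPM (log2 fold change -0.66, SE 0.09, adjusted p = 3.40e-04). *Myc*, induced in B cells selected by T cell help, read 122, 199, and 156 CPM and 91.7, 99.3, and 96.3 CPM (log2 fold change 0.73, SE 0.17, adjusted p = 0.012), not called with no filter on low counts. Its highest value was in Peyer's patch replicate 2 and its groups did not overlap.

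Of 16 glycolysis genes 9 were higher and 3 lower (13 higher and 2 lower when scaled to the B cell identity list). *Gapdh*, which oxidizes the sugar in the pathway, read 562, 504, and 567 CPM in Peyer's patch and 219, 225, and 241 CPM in spleen (log2 fold change 1.25, SE 0.07, adjusted p = 8.37e-07). Isoforms of the same step moved apart, since the hexokinase *Hk2* was higher (log2 fold change 0.53, SE 0.12, adjusted p = 0.00537) and *Hk1* lower (log2 fold change -1.08, SE 0.06, adjusted p = 7.79e-07), and the phosphofructokinase *Pfkp* was higher (log2 fold change 0.65, SE 0.06, adjusted p = 1.61e-05) and *Pfkm* lower (log2 fold change -1.57, SE 0.19, adjusted p = 1.02e-04). Mitochondrially encoded genes were higher for 11 of 13. *mt-Co1*, a subunit of cytochrome oxidase, read 33613, 25025, and 29696 CPM and 10902, 11269, and 10319 CPM (log2 fold change 1.44, SE 0.10, adjusted p = 4.49e-06), lowest in replicate 2 within Peyer's patch. Mitochondrial transcripts also move with RNA quality and preparation, and the part of these was not tested. Serine and one-carbon genes were higher for 7 of 14 and lower for 2 (10 higher and 0 lower when scaled to the B cell identity list, and 1 lower without Peyer's patch replicate 3).

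Cholesterol synthesis was higher throughout. All 18 genes of the list were called higher in Peyer's patch, with a median log2 fold change of 1.25 and a summed level of 932 to 1096 CPM against 392 to 419 CPM. *Idi1*, which isomerizes the 5-carbon unit, read 97.2, 77.2, and 75.9 CPM in Peyer's patch and 24.6, 24.5, and 23.9 CPM in spleen (log2 fold change 1.78, SE 0.10, adjusted p = 9.89e-07), and *Hmgcs1*, which acts early in the pathway, read 112, 84.4, and 90.7 CPM and 37.8, 37.3, and 37.9 CPM (log2 fold change 1.35, SE 0.10, adjusted p = 5.52e-06). For neither gene did the tissues overlap, and the list stayed at 17 or 18 higher members in every fit that left out 1 library. Peyer's patch replicates 1, 2, and 3 had cholesterol synthesis sums of 1096, 932, and 948 CPM. Their epithelial sums were 890.0, 408, and 1364 CPM, and the part of epithelium in these genes was not tested.

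The pathway is controlled by SREBP factors, which bind sterol regulatory elements next to CCAAT boxes bound by NF-Y. Because the members moved together, the 250 bases before the RefSeq start (GRCm38.p6) were searched on both strands for TCACNCCAC, an element of this kind, and for CCAAT. As spelled, matches of the 2 motifs can share at most 1 base. CCAAT was present in 11 of the 12 cholesterol genes with a promoter in the table (91.7%), in 4 of 11 germinal center genes (36.4%), and in 9314 of all 27025 promoters (34.5%). TCACNCCAC was present in 1 of the 12 (8.33%) and in 280 of all promoters (1.04%). The promoters of *Hmgcs1* (chr13:119690101-119690350, plus strand) and *Idi1* (chr13:8885356-8885605, plus strand) are printed with matches in capitals, to show 1 promoter with and 1 without the first motif.
Hmgcs1: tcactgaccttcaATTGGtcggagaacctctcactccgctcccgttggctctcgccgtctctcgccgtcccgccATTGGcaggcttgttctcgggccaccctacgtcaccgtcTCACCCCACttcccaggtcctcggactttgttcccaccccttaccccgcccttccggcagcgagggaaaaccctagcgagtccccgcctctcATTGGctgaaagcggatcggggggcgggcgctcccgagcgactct
Idi1: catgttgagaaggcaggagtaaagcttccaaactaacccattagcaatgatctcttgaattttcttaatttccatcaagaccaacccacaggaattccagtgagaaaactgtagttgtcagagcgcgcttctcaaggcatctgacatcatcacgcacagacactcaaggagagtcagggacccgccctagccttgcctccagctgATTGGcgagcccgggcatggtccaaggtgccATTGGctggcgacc
*Hmgcs1* held 1 match of TCACNCCAC and 3 of CCAAT, and *Idi1* held none and 2. A match of letters is a description and not a bound site.

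Immediate-early and stress genes, which respond within minutes to receptor signals and also to tissue digestion, were higher in Peyer's patch for 20 of 24 and lower for none (all 24 higher when scaled to the B cell identity list). *Hspa1a* and *Hspa1b*, the inducible HSP70 genes, had the largest changes. *Hspa1a* read 199.8, 265, and 436 CPM in Peyer's patch and 0.608, 0.652, and 0.499 CPM in spleen (log2 fold change 8.98, SE 0.53, adjusted p = 1.57e-04), and *Hspa1b* read 474, 576, and 975 CPM and 1.39, 2.24, and 2.54 CPM (log2 fold change 8.36, SE 0.48, adjusted p = 1.43e-04). Both were highest in Peyer's patch replicate 3, and no spleen library came near. *Hspa8*, the HSP70 member that cells make at all times, was not called, at 846, 861, and 982 CPM in Peyer's patch and 729.5, 778, and 799.6 CPM in spleen. The cofactor *Dnajb1* was not called either, at 55.6, 63.3, and 63.3 CPM and 55.1, 59.97, and 58.7 CPM.

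The 2 HSP70 genes are near copies, and reads that fit both were divided between them by the counting program, so their separate values are uncertain. Their transcribed sequences were not compared here. The promoters of the 2 genes are printed to show how close the copies are in the 250 bases before the start, which does not bear on the division of reads. They lie at chr17:34972157-34972406 and chr17:34959239-34959488 (GRCm38.p6, minus strand), with GAANNTTC, a pair of heat shock element half-sites, in capitals.
Hspa1a: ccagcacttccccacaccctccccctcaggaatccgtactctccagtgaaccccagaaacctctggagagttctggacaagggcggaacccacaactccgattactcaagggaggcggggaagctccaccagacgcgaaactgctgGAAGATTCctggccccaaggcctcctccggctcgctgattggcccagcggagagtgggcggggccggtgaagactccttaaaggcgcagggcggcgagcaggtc
Hspa1b: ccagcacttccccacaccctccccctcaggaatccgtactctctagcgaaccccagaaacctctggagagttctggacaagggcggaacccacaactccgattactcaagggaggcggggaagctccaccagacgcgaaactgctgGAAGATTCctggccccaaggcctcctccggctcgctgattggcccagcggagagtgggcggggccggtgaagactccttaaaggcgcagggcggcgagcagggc
Of 250 bases, 247 were equal and 3 differed, and each held 1 match. The motif, searched on both strands, was present in 3 of 20 promoters of the list (15%) and in 6.78% of all promoters. The 3 were *Jun*, *Hspa1a*, and *Hspa1b*. The last 2 are the near copies printed here, so the matches are not independent.

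Several transcription factors of this list were also higher in Peyer's patch. *Fos* read 185, 289, and 317 CPM in Peyer's patch and 12.2, 13.01, and 8.25 CPM in spleen (log2 fold change 4.56, SE 0.30, adjusted p = 1.40e-04), and *Jun* read 415, 556, and 701 CPM and 81.9, 61.4, and 60.6 CPM (log2 fold change 3.03, SE 0.24, adjusted p = 2.53e-04). *Nr4a1*, a nuclear receptor induced by antigen receptor signals, read 577, 1197, and 585 CPM and 35.9, 43.8, and 49.2 CPM (log2 fold change 4.19, SE 0.41, adjusted p = 0.001), with replicate 2 the highest. *Egr1* read 366, 575, and 506 CPM and 73.1, 73.2, and 70.4 CPM (log2 fold change 2.74, SE 0.17, adjusted p = 2.76e-05). The list summed to 6321 to 9135 CPM in Peyer's patch and 2865 to 2971 CPM in spleen. Only Peyer's patch was digested at 37 °C, so signals in the tissue and the effect of digestion cannot be told apart here.

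NF-kB targets were higher for 7 of 17 and lower for 5 (9 higher and 0 lower when scaled to the B cell identity list). *Cd83*, a marker of B cells of the germinal center light zone and of activated cells, read 857, 1169, and 827 CPM in Peyer's patch and 220.4, 214, and 251 CPM in spleen (log2 fold change 2.06, SE 0.14, adjusted p = 2.97e-05). *Tnfaip3*, the A20 brake on NF-kB, read 185, 279.6, and 154 CPM and 77.5, 67.6, and 74.1 CPM (log2 fold change 1.49, SE 0.24, adjusted p = 0.00366), whereas *Nfkbia*, the gene of the inhibitor IκBα, was lower at 186, 185, and 187 CPM and 238, 252, and 236 CPM (log2 fold change -0.38, SE 0.05, adjusted p = 2.43e-04) and was not called under that scaling (-0.08). *Ccl22*, a chemokine of activated B cells and dendritic cells that draws T cells, read 13.5, 12.8, and 14.5 CPM and 0.522, 0.122, and 0.363 CPM (log2 fold change 5.33, SE 0.33, adjusted p = 1.82e-06).

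Interferon-stimulated genes were lower for 8 of 27 and higher for 3, and the remaining 16 were not called. The list did not stand out from all genes, of which 45.6% were called. The number lower depended on Peyer's patch replicate 2, and was 14 without it. Of the 8 lower genes, 5 were GTPases induced by interferon-gamma. These GTPases were not a list of their own, so no count over that group is given. *Irgm1* read 31.1, 37.4, and 29.3 CPM in Peyer's patch and 78.1, 86.2, and 68.9 CPM in spleen (log2 fold change -1.26, SE 0.11, adjusted p = 1.86e-05), and *Gbp2*, *Gbp3*, *Gbp7*, and *Igtp* had log2 fold changes of -1.19, -1.24, -1.24, and -1.05. Another such GTPase, *Iigp1*, was higher, at 3.18, 0.799, and 0.531 CPM and 0.217, 0.0815, and 0.136 CPM (log2 fold change 3.37, SE 0.80, adjusted p = 0.00616), as were the antiviral genes *Rsad2* (1.57) and *Oasl2* (1.63).

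Of 15 antigen presentation genes, 1 was higher and 4 lower, against 10 higher and 1 lower when scaled to the B cell identity list. *Ctss*, the protease that trims the invariant chain, read 281, 288, and 295 CPM in Peyer's patch and 440.5, 430.1, and 487 CPM in spleen (log2 fold change -0.65, SE 0.06, adjusted p = 2.44e-05), and *B2m*, the light chain of MHC class I, read 421, 452, and 408 CPM and 625, 578, and 591 CPM (log2 fold change -0.49, SE 0.06, adjusted p = 1.26e-04), and *B2m* was not called under that scaling (-0.19). *Cd74*, the invariant chain of MHC class II, was not called at 8115, 9213, and 8558 CPM and 8957, 9023, and 9820.4 CPM (adjusted p = 0.24). Of 16 tested costimulatory genes and T cell ligands, 7 were higher and 5 lower (8 higher and 2 lower when scaled to the B cell identity list, and 3 lower without Peyer's patch replicate 1). *Cd86*, the ligand of CD28 on T cells, read 51.8, 60.2, and 47.1 CPM and 23.5, 24.3, and 25.9 CPM (log2 fold change 1.11, SE 0.10, adjusted p = 1.40e-05), and *Cd274* (PD-L1) read 106, 138, and 102.2 CPM and 67.5, 69.5, and 74.7 CPM (log2 fold change 0.71, SE 0.11, adjusted p = 7.42e-04). *Btla*, an inhibitory receptor, was lower at 198, 201, and 176 CPM and 386, 346, and 363 CPM (log2 fold change -0.93, SE 0.07, adjusted p = 4.62e-06).

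Cytokine receptors and their regulators were higher for 8 of 24 and lower for 10 (10 higher and 7 lower when scaled to the B cell identity list). *Il21r*, the receptor for the follicular helper T cell cytokine IL-21, read 237, 233, and 236 CPM in Peyer's patch and 112, 99.03, and 122 CPM in spleen (log2 fold change 1.08, SE 0.08, adjusted p = 3.07e-06). *Il5ra*, which B-1 cells carry, read 6.95, 8.28, and 6.58 CPM and 26.8, 24.8, and 20.3 CPM (log2 fold change -1.73, SE 0.14, adjusted p = 1.01e-05), and *Il9r* read 37.2, 37.8, and 48.9 CPM and 112, 104, and 130.4 CPM (log2 fold change -1.49, SE 0.12, adjusted p = 2.64e-05). *Il7r* was higher at 35.7, 29.3, and 34.8 CPM and 1.43, 2.16, and 1.903 CPM (log2 fold change 4.18, SE 0.16, adjusted p = 2.66e-07) and is also a T cell marker. Among 14 tested survival genes 6 were higher and 4 lower (8 higher and 3 lower when scaled to the B cell identity list). *Bcl2*, which germinal center B cells shut off, read 96.99, 111, and 107 CPM and 173, 185, and 178 CPM (log2 fold change -0.77, SE 0.07, adjusted p = 1.20e-05), *Mcl1*, another protein that blocks cell death, read 607, 638, and 594 CPM and 1125, 1167, and 1088 CPM (log2 fold change -0.88, SE 0.06, adjusted p = 2.09e-06), and *Tnfrsf13b*, the BAFF and APRIL receptor TACI, read 209, 207, and 209.6 CPM and 326, 346, and 337 CPM (log2 fold change -0.69, SE 0.05, adjusted p = 5.31e-06).

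Genes reported for regulatory B cells, which restrain immune responses through IL-10 and other routes, were split. Of 15 tested members, 7 were higher and 5 lower (7 higher and 2 lower when scaled to the B cell identity list, and 3 lower without spleen replicate 2). *Il10* itself fell under the filter on low counts and has no test, with 15, 9, and 5 counts in Peyer's patch and 3, 2, and 1 in spleen (0.636, 0.654, and 0.265 CPM against 0.1304, 0.0815, and 0.0453 CPM). Its values did not overlap, and at this depth the level is close to the limit of counting. *Havcr1* (TIM-1), a marker of IL-10-producing B cells, read 47.3, 43.7, and 41.04 CPM in Peyer's patch and 4.09, 3.63, and 5.71 CPM in spleen (log2 fold change 3.30, SE 0.15, adjusted p = 6.21e-07). *Il12a*, which encodes the p35 chain of IL-35, was lower at 7.63, 9.81, and 9.502 CPM and 25.2, 22.5, and 24.7 CPM (log2 fold change -1.43, SE 0.12, adjusted p = 1.34e-05). *Ebi3*, its partner chain, was also lower (log2 fold change -0.60, SE 0.15, adjusted p = 0.00835), but not called under that scaling (-0.30).

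The study grouped regulatory B cell markers by their difference between OVA NP and PBS mice, in samples that include the spleen PBS libraries used here, so these lists are not independent evidence. Of its 8 B10 markers (genes of IL-10-secreting B cells) listed as higher with OVA NPs, 5 were higher in Peyer's patch and 2 lower. *Zdhhc2*, a palmitoyltransferase, read 15.4, 16.1, and 15.2 CPM in Peyer's patch and 1.74, 1.47, and 1.63 CPM in spleen (log2 fold change 3.27, SE 0.16, adjusted p = 6.42e-07), and *Sh2d1b1*, a signaling adaptor, read 12.00, 8.28, and 10.8 CPM and 0.739, 0.856, and 0.861 CPM (log2 fold change 3.66, SE 0.24, adjusted p = 2.33e-06). Of the 12 B10 markers listed as higher with PBS, 1 was higher and 7 lower (4 higher and 6 lower when scaled to the B cell identity list), with *Nebl*, an actin-binding protein, at 2.59, 5.38, and 3.93 CPM and 15.9, 17.8, and 14.3 CPM (log2 fold change -2.04, SE 0.24, adjusted p = 9.70e-05) and *Apoe* the member that was higher. Of its 5 genes shared by tissues, 2 were higher (1 without Peyer's patch replicate 1 or spleen replicate 2) and 1 lower, and of its 12 genes from a meta-analysis, 8 were higher and 2 lower (1 lower in each fit that left out a library other than Peyer's patch replicate 1). *Fut8*, the core fucosyltransferase and a gene of the meta-analysis, read 67.6, 57.8, and 67.6 CPM and 21.8, 19.3, and 20.9 CPM (log2 fold change 1.64, SE 0.09, adjusted p = 8.37e-07). Of 14 glycosyltransferases of B cell glycans, a list that holds *Fut8*, 4 were higher and 5 lower (7 higher and 3 lower when scaled to the B cell identity list).

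The same comparison was made in mice given soluble OVA or OVA NPs, in libraries that the PBS comparison does not use. CPM was scaled within the 6 libraries of each treatment, so levels of different treatments are not on a common scale. Differences between treatments within a tissue were not tested. Peyer's patch OVA NP replicate 3 stood apart, with *Mpo* at 32.2 CPM and *Car1* at 25.3 CPM, and counts of calls and interaction tests with OVA NPs are also given without this library. In the other Peyer's patch libraries *Mpo* was at most 0.336 CPM and *Car1* had no count. In soluble OVA mice 7872 of 15415 genes (51.1%) were called, 26.7% higher and 24.3% lower, and 5355 had the direction of a call in PBS mice, which is 76% of the PBS calls and 68% of the soluble OVA calls. In OVA NP mice 5735 of 15466 (37.1%) were called, 22% higher and 15.1% lower, or 5205 without replicate 3, and 4321 had the direction of a call in PBS mice, which is 61.3% of the PBS calls and 75.3% of the OVA NP calls (without replicate 3 3847, 54.6%, and 73.9%). Calls with the opposite direction numbered 50 and 10 (11 for OVA NPs without replicate 3).

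Whether the tissue difference itself differed from that in PBS mice was tested as an interaction on 12 libraries at an adjusted p under 0.05. Both interaction tests use the same 6 PBS libraries. The tissue difference differed for 1131 of 16541 genes (6.84%) with soluble OVA, 293 (1.77%) shifted toward higher and 838 (5.07%) toward lower in Peyer's patch. With OVA NPs it differed for 734 of 16619 (4.42%), 145 (0.872%) and 589 (3.54%), or 780 without Peyer's patch OVA NP replicate 3. DESeq2 called 1796 and 1221 genes. Both counts depended on single libraries, at 655 to 1279 and 291 to 945 genes with 1 library left out. The first fell by over 1.5 times without spleen PBS replicate 1 (655) or 2 (700). The second did so without spleen OVA NP replicate 1 (291) or 2 (378), spleen PBS replicate 1 (317), 2 (341), or 3 (484), Peyer's patch PBS replicate 1 (362), and Peyer's patch OVA NP replicate 2 (488).

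The median log2 fold change of the germinal center list was 4.15 in PBS mice, 2.33 with soluble OVA, and 1.67 with OVA NPs (1.59 without replicate 3). The interaction was called for 10 of 16 genes with soluble OVA and 15 with OVA NPs (13 without replicate 3), all toward lower. The summed level of the list in spleen was 210.2 to 316 CPM with PBS, 663 to 937 CPM with soluble OVA, and 597 to 696 CPM with OVA NPs. In Peyer's patch it was 1945 to 2283, 3534 to 3612, and 1499 to 2181 CPM. By these sums, scaled apart for each treatment, the spleen level was lowest in PBS mice, whereas Peyer's patch was highest with soluble OVA. *Eaf2*, which promotes cell death in germinal centers, had log2 fold changes of 3.96, 1.78, and 1.57, and its interactions were -2.17 (adjusted p = 1.13e-04) and -2.40 (adjusted p = 5.34e-04, or 0.00135 without replicate 3).

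All 20 mitosis genes were called higher in Peyer's patch with soluble OVA and 11 with OVA NPs (6 without replicate 3), and the interaction was called for 3 and for all 20 (20 without replicate 3). The list summed to 479.6 to 585 CPM in spleen with PBS, 1448 to 1631 CPM with soluble OVA, and 1203 to 1707 CPM with OVA NPs, and to 2170.3 to 2636, 4956 to 5407, and 1737 to 2456 CPM in Peyer's patch. These sums were scaled apart for each treatment, and differences between treatments within a tissue were not tested. The median log2 fold change was 2.05 with PBS, 1.65 with soluble OVA, and 0.57 with OVA NPs (0.47 without replicate 3). Cholesterol synthesis genes were called higher for 15 and 14 of 18 with medians of 0.55 and 0.54, against 1.25 in PBS mice, and the interaction was called for 10 and 7 of them, all toward lower (13 called and 8 interactions with OVA NPs without replicate 3).

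**Figure D5:**
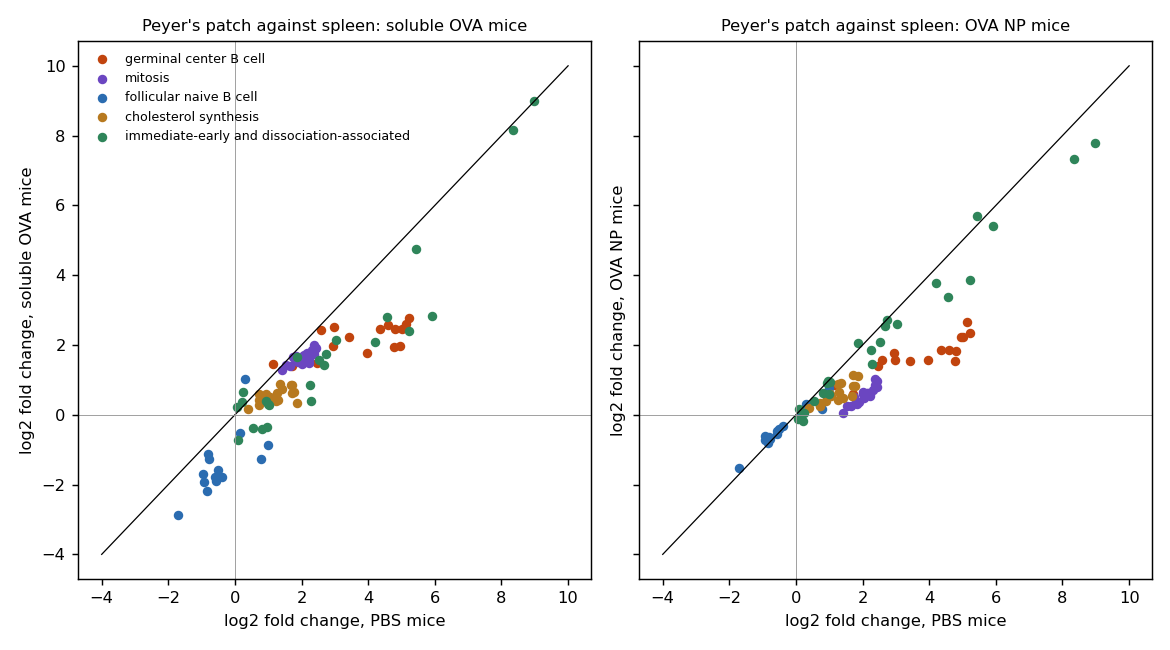
Log2 fold change of Peyer's patch against spleen for members of 5 lists, PBS mice on the horizontal axis and soluble OVA (left) or OVA NP mice (right) on the vertical axis, with a line of equal values. With soluble OVA 15 of 16 germinal center genes and 13 of 14 follicular genes lie below the line, and with OVA NPs 16 and 3. All 20 mitosis genes lie below it in both panels, further with OVA NPs. The PBS values are the same in both panels.

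With soluble OVA the follicular list had 12 of 14 lower with a median of -1.64. The median was -0.58 in PBS mice and -0.51 with OVA NPs (-0.48 without replicate 3). The interaction was called toward lower for 11 genes with soluble OVA and for none with OVA NPs, with or without replicate 3. *Fcer2a* had log2 fold changes of -0.40, -1.77, and -0.31, with an interaction of -1.36 for soluble OVA (adjusted p = 9.06e-05). Without replicate 3 the OVA NP value was -0.24 and was not called (adjusted p = 0.0958). Antigen presentation genes shifted toward lower for 13 of 15 with soluble OVA and none with OVA NPs, with or without replicate 3.

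Some single genes changed direction between treatments. *Ighg1* was higher in Peyer's patch of PBS mice (4.80), lower with soluble OVA (-1.72), and at 0.97 with OVA NPs, with interactions of -6.51 (adjusted p = 1.07e-04) and -3.84 (adjusted p = 0.00535, or 0.00934 without replicate 3). In spleen it read 25.9, 20.5, and 50.3 CPM with PBS, 646, 429, and 667 CPM with soluble OVA, and 421, 465, and 372 CPM with OVA NPs. *Cd83* had log2 fold changes of 2.06, -0.54, and 0.67, with interactions of -2.59 (adjusted p = 5.36e-05) and -1.40 (adjusted p = 0.0133, or 0.0158 without replicate 3). *Igha* stayed high at 6.56, 7.48, and 7.14, and neither interaction was called (adjusted p = 0.104 and 0.562, the latter 0.319 without replicate 3). *Hspa1b* and *Hic1* also had log2 fold changes above 5 in all 3 treatments.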

How the data were processed

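B cell RNA was sequenced with 151 bp paired reads in 18 libraries, 3 per tissue and treatment. Per the study's methods, the authors trimmed reads (Cutadapt 2.3), aligned them to GRCm38 with Ensembl 102 (STAR 2.7.8a), and deposited RSEM 1.3.3 expected counts for 55491 genes, all whole numbers. Strandedness is not given in the sources used here, so antisense and overlapping genes may share counts. Samples were grouped by their labels. Counts were tested with edgeR 4.0.16 in R 4.3.3 (filterByExpr with a minimum count of 10 and total of 15, TMM, robust quasi-likelihood F test, Benjamini-Hochberg), after tests on simulated data. SE is the log2 fold change divided by the root of F. Interactions were tested on 12 libraries with no fold-change cutoff. Depth was 14177253 to 24385914 counts in the 6 PBS libraries. DESeq2 1.42.0, other scalings and filters, a replicate block, and left-out libraries served as alternatives. Named genes were the 12 with the largest change in each direction, at a mean of at least 5 CPM and without overlap (V, D, and J segments and unnamed, Gm, or Rik genes left out), and members of gene lists with a defining role or large change. Some genes of these lists are not reported here by name. Members and lists were chosen with earlier results of these data known. Gene positions are GENCODE M21, and promoters are RefSeq GRCm38.p6.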

Additional observations from a re-analysis of the deposited data

Results flagged for a closer look

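The difference between Peyer's patch and spleen was not the same in PBS mice as in mice given soluble OVA, by an interaction test in edgeR, for 1131 genes. This is 6.84% of the 16541 genes tested. Of the genes named above, 40 were among them. Named genes were chosen in part for a large difference in the same PBS libraries. That choice favors shifts toward a smaller difference, so their share cannot be set against the share over all genes. The values are the log2 fold change in soluble OVA mice minus that in PBS mice, so a negative value is a shift toward lower in Peyer's patch. Among germinal center genes it was -2.99 for *Rgs13*, -2.44 for *Nuggc*, -2.35 for *S1pr2*, -2.17 for *Eaf2*, -1.20 for *Lipc*, and -0.95 for *Fas*. Among antibody, plasma cell, and class switch genes it was -6.51 for *Ighg1*, -1.99 for *Ighe*, -1.31 for *Ighd*, -0.65 for *Xbp1*, and 2.03 for *Ighg2b*. Among follicular, marginal zone, and other B cell subset genes it was -2.05 for *Gpr183*, -1.84 for *Ccr7*, -1.36 for *Fcer2a*, -1.08 for *S1pr1*, -1.02 for *Itgb7*, -0.93 for *Sox4*, -0.74 for *Cd38*, -0.72 for *Notch2*, and 0.74 for *Bach2*. Among cell cycle and metabolic genes it was -1.13 for *Idi1*, -0.99 for *Myc*, -0.88 for *Cdkn1b*, and 0.35 for *Pfkp*. Among stress, NF-kB, and interferon genes it was -2.59 for *Cd83*, -2.51 for *Ccl22*, -1.75 for *Fos*, -1.0 for *Egr1*, -0.92 for *Gbp7*, and -0.37 for *Nfkbia*. Among the other genes named above it was -1.88 for *Havcr1*, -1.37 for *Cd274*, -1.33 for *Zdhhc2*, -1.19 for *Sh2d1b1*, -0.76 for *B2m*, -0.69 for *Bcl2*, -0.69 for *Cd74*, -0.46 for *Ctss*, 0.51 for *Syk*, and 0.74 for *Apoe*.

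The same test with OVA NPs called 734 genes (4.42% of 16619). Of the genes named above, with the same limit on their choice, it called 30. Of these, 26 were also called without Peyer's patch OVA NP replicate 3. The exceptions were *Il9r* (adjusted p = 0.0746), *Mybl1* (adjusted p = 0.0605), *Sh2d1b1* (adjusted p = 0.078), and *Xbp1* (adjusted p = 0.0572). Both tests use the same PBS libraries, and 13 of the named genes were called in both. For germinal center genes the shift was -3.0 for *S1pr2*, -2.88 for *Nuggc*, -2.74 for *Rgs13*, -2.52 for *Mybl1*, -2.40 for *Eaf2*, -1.89 for *Lipc*, and -1.08 for *Fas*. For antibody, plasma cell, and class switch genes the shift was -3.84 for *Ighg1*, -1.07 for *Jchain*, -1.02 for *Polh*, -0.75 for *Ung*, and -0.53 for *Xbp1*. For follicular, marginal zone, and other B cell subset genes the shift was -0.87 for *Nt5e*, 0.97 for *Ccr9*, 0.97 for *Itgax*, and 1.35 for *Asb2*. For cell cycle and metabolic genes the shift was -1.61 for *Mki67*, -1.53 for *Top2a*, -0.98 for *Idi1*, -0.74 for *Gapdh*, -0.74 for *Pcna*, and -0.68 for *Ccnd3*. For stress, NF-kB, and interferon genes the shift was -1.40 for *Cd83*. For the other genes named above the shift was -1.99 for *Zdhhc2*, -1.59 for *Havcr1*, -1.03 for *Sh2d1b1*, -0.66 for *Fut8*, 0.56 for *Btla*, 0.65 for *Il9r*, and 1.29 for *Il5ra*.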

How the results depend on the processing

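The PBS comparison called 7425 genes with DESeq2, 8245 with no filter, 5325 with at least 10 counts in every library, 7050 with DESeq2 size factors, 7017 without immunoglobulin genes, 7064 without mitochondrially encoded genes, 7837 with all 18 libraries in 1 fit, and 7762 with no fold-change cutoff, and 3286 with an absolute log2 fold change above 1. Of the calls, 55.9% were higher in Peyer's patch, against 85.2% when libraries were scaled to the B cell identity list, an alternative chosen after seeing the data, and 78.8% at an absolute log2 fold change above 1. With 1 library left out, the PBS, soluble OVA, and OVA NP comparisons called 6375 to 7829, 7094 to 8248, and 4814 to 6276 genes. The soluble OVA interaction called 1796 genes with DESeq2, 1239 with DESeq2 size factors, and 1487 with no filter, and 655 to 1279 with 1 library left out. The OVA NP interaction called 1221 genes with DESeq2, 745 with DESeq2 size factors, and 1005 with no filter, and 291 to 945 with 1 library left out.

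Of the 145 named genes with a test, 9 lost their call when scaled to the B cell identity list, namely *B2m*, *Cxcr5*, *Ebi3*, *Fcer2a*, *Itgb7*, *Nfkbia*, *S1pr1*, *Shld2*, and *Tgfbr2*, and 2 gained one. *Cd74* reversed to 0.19 under this scaling. *Sdc1*, not called, ranged from -0.038 without Peyer's patch replicate 3, and -0.023 without spleen replicate 3, to 0.26 without Peyer's patch replicate 2. *Ccr7* and *Ighe* lost their call with all 18 libraries in 1 fit. With no filter *Adh1*, *Fabp1*, *Fabp2*, *Myc*, *Rbp2*, and *S100a9* did so. The cause of these changes was not tested.

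With the replicate number as a block, the PBS comparison called 7179 genes, the soluble OVA and OVA NP comparisons 7860 and 5248, and the interactions 1251 and 348. Same-numbered PBS libraries of the tissues deviated together only weakly (correlations of 0.0039, 0.1115, and 0.0364 over genes), and the labels do not state a shared mouse. The numbers were therefore not taken as pairs. Of the named genes, *Ighg3* lost its call under the block.

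Each group has 3 libraries, and genes under the filter on low counts, such as *Il10*, have no test at this depth. Tissue, dissociation, and the makeup of other cells cannot be told apart.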
